A study of Mus musculus with 9 samples.

Results

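The genes *Hes1*, *Hes6*, *Hey1*, *Hey2*, *Heyl* and *Nrarp* were followed through 3 states of mouse muscle stem cells (MuSCs). They are the 6 rows of the expression table, out of 25655 genes, whose names belong to a chosen set. The set holds effectors and feedback regulators of the Notch pathway. Rows were picked by name and not by a measured value, but the set was chosen with earlier results of these data known. MyoD-tdTomato low cells, here Low, and MyoD-tdTomato high cells, here High (3 libraries each), were MuSCs of heterozygous MyoD-KI mice on a C57BL/6 background. The mice were aged 10 to 16 weeks and carry tdTomato at the 3′ end of *MyoD*. Their sex is not given for these libraries, and the Methods name both sexes for the line. These MuSCs were enriched with magnetic beads against integrin α7, cultured in growth medium for 5 days and then parted by FACS on tdTomato brightness, so the 2 groups differ by a gate on a *MyoD* reporter. QSCs (3 libraries) were MuSCs sorted from muscle of male Pax7-YFP mice, aged 15 to 16 weeks and homozygous for YFP at *Pax7*, and were not cultured. QSCs therefore differ from the cultured cells in culture, reporter allele and way of isolation together, which cannot be told apart. The mice may also differ in sex and age. The Methods call the libraries technical replicates, and the p-values therefore reflect the scatter of libraries alone, which may be technical.

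Notch signalling starts when a ligand on one cell binds a Notch receptor on its neighbour. The receptor is then cut, and its intracellular part enters the nucleus, joins the DNA-binding protein RBPJ and a Mastermind coactivator, and switches on target genes. *Hes1*, *Hey1*, *Hey2* and *Heyl* are such targets and encode basic helix-loop-helix repressors. Of these, HES1 is known to recruit Groucho/TLE corepressors. *Nrarp* is another direct target, and its ankyrin-repeat protein binds the Notch complex and damps it. *Hes6* stands apart in the family: its protein interferes with HES1, it is switched on in committed myoblasts, and it favours differentiation. In resting MuSCs, Notch signalling, with *Hey1* and *Heyl* among its targets, is known for holding cells in quiescence.

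Counts were scaled to a common effective library size with TMM factors (CPM), which serves to compare one gene between libraries. TPM values, as the authors deposited them, also correct for transcript length and serve to compare genes within a library. Differences were tested on counts with edgeR's quasi-likelihood test, and a gene was called higher or lower at a Benjamini-Hochberg adjusted p under 0.01 if it also differed by more than 1.5-fold. Errors of levels are the SD of 3 libraries, errors of log2 fold changes are standard errors (SE), and a positive log2 fold change means higher in the group named first. The test covered the 12614 genes with a count in every library, among them 5 of the 6 genes; *Hey2* was left out because it had a count of 0 in High replicate 2.

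Total counts ranged over 24471782 to 25767904 in Low, 24643176 to 26782872 in High and 7514633 to 18077031 in QSCs libraries. QSCs replicate 2 was the shallowest library and stood apart in its background. Chemosensory receptor genes, 1602 genes that muscle cells should not use, summed to 20.4 to 29.6 CPM in the cultured libraries, and to 562, 3001 and 771 CPM in QSCs replicates 1, 2 and 3. Weak genes are therefore set beside the 95th percentile of these genes' TPM in the same library.

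Of the 5 genes tested, *Hes1* was called higher and *Hes6* lower in Low than in High cells, where 1.23% and 3.88% of all genes were called in those directions (5.11% in all). In Low cells against QSCs, *Hes6* was called higher and *Hey1* and *Heyl* lower, beside 22.6% and 26.5% of all genes (49.1% in all). In High cells against QSCs, *Hes6* was called higher and *Hes1*, *Hey1* and *Heyl* lower, beside 24.6% and 26.4% (51.1% in all). With 49.1% and 51.1% of all genes called against QSCs, the number of calls in these 2 comparisons says little about this set, and the sizes of the differences carry the description. Between the cultured groups, both calls were lost when any Low library, or High replicate 1 or 3, was left out. Over all 9 fits without 1 library, the log2 fold change of *Hes1* stayed within 0.66 to 0.85 (adjusted p at most 0.0385) and that of *Hes6* within -1.46 to -1.24 (adjusted p at most 0.0169).

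The replicate numbers were taken to pair the Low with the High libraries. This rests on correlations in these data and on no label, as described with the processing. In a paired fit of these 6 libraries, blocked on the replicate number (replicate block), *Hes1*, *Hey1*, *Heyl* and *Nrarp* were called higher and *Hes6* lower in Low cells, beside 6.25% and 8.68% of 13502 genes. That fit differs from the main test both in the block and in leaving out QSCs, and it is the one meant below by the replicate block. Each change alone gave 3 of the 5 genes: *Hes1*, *Hes6* and *Nrarp* in the 6 libraries without the block (7.6% of all genes called), and *Hes1*, *Hes6* and *Heyl* with the block in all 9 libraries (5.18%). The plot of levels by library shows every gene on its own scale.

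**Figure D1:**
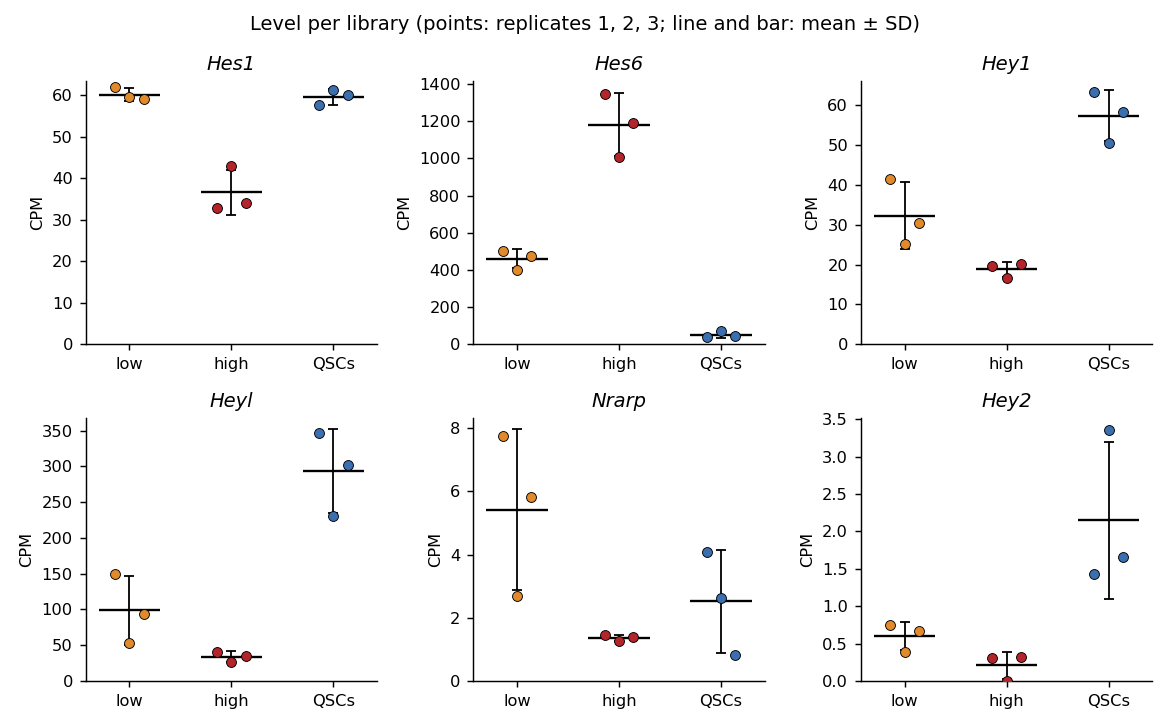
Level of each of the 6 genes in CPM (linear axis from 0, one scale per gene) in Low, High and QSCs libraries; points are the 3 replicates, the line and bar are their mean and SD. *Hes6* was lowest in QSCs and highest in High cells, *Hey1* and *Heyl* ran in the opposite order, and *Hes1* was about equal in Low cells and QSCs and lower in High cells.

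*Hes6* (ENSMUSG00000067071; chromosome 1, 91339205 to 91341760, minus strand, GRCm39) differed most from QSCs. It had 501, 401 and 477 CPM in replicates 1, 2 and 3 of Low and 1346, 1007 and 1192 CPM in those of High cells. QSCs replicates had 37.6, 70.9 and 43.5 CPM. No 2 groups overlapped, and the highest QSCs value was that of replicate 2. Low cells were 0.389 times as high as High cells, which is -1.36 ± 0.21 on the log2 scale (SE; adjusted p = 0.00308). With the replicate block it was -1.33 ± 0.06 (adjusted p = 6.77e-09). *Hes6* was highest in replicate 1 and lowest in replicate 2 of both cultured groups. Against QSCs, *Hes6* was 9.08 times as high in Low cells (log2 fold change 3.19 ± 0.23, adjusted p = 8.78e-07). It was 23.3 times as high in High cells as in QSCs (log2 fold change 4.55 ± 0.24, adjusted p = 1.08e-07).

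The myogenic factors were read beside *Hes6*. *Myog*, the basic helix-loop-helix factor that starts terminal differentiation, had 303 ± 151 CPM in Low, 2280 ± 709 in High and 73.3 ± 14.3 in QSCs (SD, n = 3 each). *Myod1*, whose locus carries the reporter, had 709 ± 16.6, 1463 ± 20.7 and 744 ± 188 CPM in the same 3 groups. *Myog* was called in all 3 comparisons and *Myod1* was called lower in Low than in High cells (log2 fold change -1.04 ± 0.16, adjusted p = 0.0031) and higher in High cells than in QSCs (0.97 ± 0.16, adjusted p = 0.00036). *Myf5*, a determination factor of early myoblasts, and *Myf6*, expressed late in muscle fibres, were called in none of the 3 comparisons. With the replicate block *Myf6* was called lower in Low than in High cells (log2 fold change -1.79 ± 0.16, adjusted p = 3.95e-06). *Myf5* was higher in Low cells in that fit (0.56 ± 0.06, adjusted p = 2.24e-05), short of the 1.5-fold threshold. In the main test it was 0.53 ± 0.12 (adjusted p = 0.0173). The means of *Myog* thus ran in the order of those of *Hes6*.

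The promoter of *Hes6* holds a letter pattern of interest here because MYOD1 and MYOG bind E boxes, of which CAGCTG is the muscle form. RefSeq promoter windows of 300 bases (250 before and 50 after a start site, GRCm38.p6) were found for *Hes6* (2 windows), *Hey2* and *Nrarp*, and these 4 windows were searched on both strands. Each window of *Hes6* held CAGCTG before its start site, shown here in capitals, on the minus strand of chromosome 1 at 91414193 to 91414220 for the first and 91413356 to 91413383 for the second:
Hes6 window 1: ggaagcggctgCAGCTGccaactgtcac
Hes6 window 2: ctccgccccgcCAGCTGccagagacccg
The first matched bases lay 171 and 150 bases before their start sites. CAGCTG is its own reverse complement, and 16.3% of 32851 promoter windows hold it. The match describes the sequence only, and binding was not measured.

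*Hes1* (ENSMUSG00000022528; chromosome 16, 29883202 to 29886614, plus strand), the best-known Notch-driven repressor of differentiation genes, had 61.9, 59.6 and 59.1 CPM in Low and 32.9, 42.9 and 34.1 CPM in High cells. In QSCs it had 57.6, 61.2 and 60.1 CPM. The Low and QSCs ranges overlapped and lay wholly above that of High cells. *Hes1* was higher in Low than in High cells (log2 fold change 0.72 ± 0.13, adjusted p = 0.00539; 0.75 ± 0.09, adjusted p = 4.09e-05 with the replicate block). It was lower in High cells than in QSCs (-0.70 ± 0.13, adjusted p = 0.00066). Between Low cells and QSCs the log2 fold change was 0.01 ± 0.13 (adjusted p = 0.927), a difference within the spread of the libraries.

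The readings of *Hes1* against QSCs depend on the scale. On log2(TPM + 1), the median of all 12614 genes was shifted by 0.67 in Low and by 0.59 in High cells against QSCs, and by 0.11 between the cultured groups. On that scale 6013 genes were called higher and 1579 lower in Low cells against QSCs, where the counts gave 2848 and 3343. The same split was 5750 and 1799 in High cells against QSCs, where the counts gave 3107 and 3333. *Hes1* had 106, 108 and 107 TPM in Low, 51.6, 71.6 and 54.8 TPM in High and 60.5, 70.5 and 52.9 TPM in QSCs. Its log2 difference on that scale was 0.80 for Low cells against QSCs (adjusted p = 0.000539, limma) and -0.05 for High cells against QSCs (adjusted p = 0.768, limma). Less the shift of all genes, these differences were 0.13 and -0.64, beside 0.01 and -0.70 from the counts. The order of the cultured groups was the same on both scales.

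**Figure D2:**
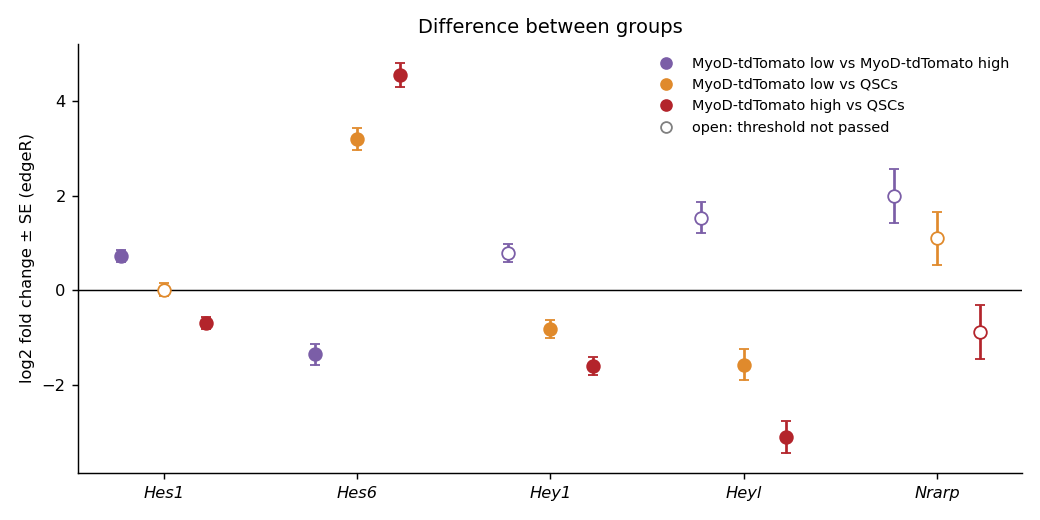
Log2 fold change with SE (edgeR) of the 5 tested genes in the 3 comparisons; filled points passed the thresholds (adjusted p under 0.01, more than 1.5-fold), open points did not. *Hes6* had the values farthest above 0 against QSCs (3.19 and 4.55), and *Heyl* those farthest below (-1.58 and -3.11).

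*Heyl* (ENSMUSG00000032744; chromosome 4, 123127349 to 123143668, plus strand) and *Hey1* (ENSMUSG00000040289; chromosome 3, 8728419 to 8732316, minus strand), the Hey repressors known from quiescent MuSCs, shared 1 order of groups. *Heyl* had 149.7, 52.4 and 93.3 CPM in Low and 41.0, 26.6 and 34.2 CPM in High cells. In QSCs it had 347, 231 and 302 CPM. The 3 groups did not overlap, and replicate 1 was the highest and replicate 2 the lowest of each group. Against QSCs, *Heyl* was lower in Low cells (log2 fold change -1.58 ± 0.32, adjusted p = 0.00146) and in High cells (-3.11 ± 0.34, adjusted p = 1.75e-05). Between the cultured groups the log2 fold change was 1.54 ± 0.33 (adjusted p = 0.0123), short of the threshold without the pairing. Over the 9 fits without 1 library it stayed within 1.10 to 1.84 (adjusted p at most 0.0551). Of these only 1 passed, that without Low replicate 2 (1.84, adjusted p = 0.00375). With the replicate block it was 1.47 ± 0.17 (adjusted p = 0.001) and *Heyl* was called higher in Low cells.

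*Hey1* had 41.4, 25.1 and 30.4 CPM in Low, 19.7, 16.7 and 20.0 CPM in High cells, and 63.3, 50.6 and 58.3 CPM in QSCs. The groups did not overlap here either, with the same replicates highest and lowest in Low cells and in QSCs as for *Heyl*. *Hey1* was lower in High cells than in QSCs (log2 fold change -1.61 ± 0.20, adjusted p = 3.44e-05). In Low cells against QSCs it was called lower (-0.83 ± 0.19, adjusted p = 0.00296). That call was lost without Low replicate 2 (adjusted p = 0.0144), without Low replicate 3 (adjusted p = 0.0165), and without QSCs replicate 1 (adjusted p = 0.0118). Between the cultured groups the log2 fold change was 0.78 ± 0.19 (adjusted p = 0.0248). None of the 9 fits without 1 library gave the call (0.56 to 0.93, adjusted p at most 0.0906). With the replicate block it was 0.78 ± 0.11 (adjusted p = 0.000114), and *Hey1* was called higher in Low cells. Neither change alone gave the call (0.81, adjusted p = 0.0161 in the 6 libraries without the block; 0.76, adjusted p = 0.0123 with the block in all 9).

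On the TPM scale *Hey1* had 42.8, 27.4 and 33.3 TPM in Low cells, a range that overlapped the 40.3, 35.3 and 31.1 TPM of QSCs. Its log2 difference between these groups was -0.06 on log2(TPM + 1) (adjusted p = 0.782, limma), and -0.72 less the shift of all genes. *Heyl* had 82.5, 30.7 and 54.6 TPM in Low cells, 20.8, 14.3 and 17.8 TPM in High cells and 118, 86.0 and 86.0 TPM in QSCs. *Heyl* stayed lower in Low cells than in QSCs without passing the threshold (-0.87, adjusted p = 0.0207, limma; -1.54 less the shift). Its groups did not overlap in TPM. For both genes the lower level in High cells than in QSCs passed on either scale.

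*Nrarp* (ENSMUSG00000078202; chromosome 2, 25070770 to 25073351, plus strand), the feedback inhibitor, was a weak gene. Its raw counts were 218, 76 and 173 in Low, 37, 36 and 35 in High and 60, 18 and 10 in QSCs libraries. In CPM these were 7.75, 2.70 and 5.82 in Low and 1.45, 1.26 and 1.37 in High cells, against 4.09, 2.62 and 0.83 in QSCs. The cultured groups did not overlap, and QSCs overlapped both. The log2 fold change between Low and High cells was 1.99 ± 0.56 (adjusted p = 0.0461). None of the 9 fits without 1 library gave a call (1.65 to 2.32, adjusted p at most 0.171). With the replicate block the log2 fold change was 1.93 ± 0.26 (adjusted p = 0.00012), and *Nrarp* was called higher. It was also called in the same 6 libraries without the block (2.03, adjusted p = 0.00751), but not with the block in all 9 libraries (1.91, adjusted p = 0.0589). Against QSCs neither difference passed (1.10 ± 0.56, adjusted p = 0.106 for Low; -0.89 ± 0.57, adjusted p = 0.192 for High). Without 1 library these fold changes ran over 0.67 to 1.73 and -1.32 to -0.26; without QSCs replicate 1 they were 1.73 (adjusted p = 0.0316) and -0.26 (adjusted p = 0.717), and without QSCs replicate 3 0.67 (adjusted p = 0.232) and -1.32 (adjusted p = 0.0334). Without Low replicate 1 the difference of Low cells from QSCs was 0.76 (adjusted p = 0.324).

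*Hey2* (ENSMUSG00000019789; chromosome 10, 30708355 to 30718797, minus strand), a Hey repressor best known from heart and arteries, was the weakest of the 6 in the cultured libraries and in QSCs replicate 1, whereas *Nrarp* was weaker in QSCs replicates 2 and 3. It had 21, 11 and 20 counts in Low, 8, 0 and 8 in High and 21, 23 and 20 in QSCs libraries. In TPM these were 0.73, 0.41 and 0.70 in Low, 0.28, 0 and 0.29 in High and 0.87, 2.22 and 0.84 in QSCs. The groups did not overlap, and a two-sided exact permutation test of the TPM gave p = 0.1 for each pair of groups, the smallest that 3 libraries against 3 allow.

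The level of *Hey2* in QSCs stood close to that of genes muscle should not use. The 95th percentile of the chemosensory receptor genes was 0.75, 3.43 and 0.88 TPM in QSCs replicates 1, 2 and 3, and *Hey2* passed it in replicate 1 alone. *Nrarp*, with 2.44, 1.72 and 0.42 TPM in QSCs, also passed it in replicate 1 alone. In the cultured libraries that percentile was 0.034 to 0.039 TPM, and *Nrarp* lay above it in all 6 and *Hey2* in 5. The higher reading of *Hey2* in QSCs is thus not separated from background at this depth, while the levels of *Nrarp* and *Hey2* in Low cells are.

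**Figure D3:**
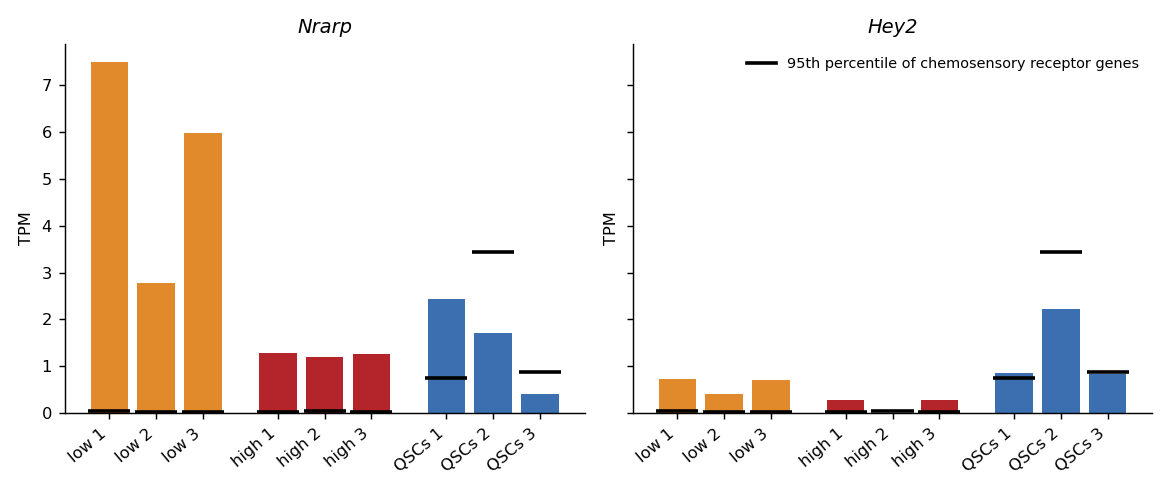
TPM of *Nrarp* and *Hey2* in each library (bars, linear axis from 0), with the 95th percentile of the TPM of 1602 chemosensory receptor genes in the same library as a black line. In QSCs replicates 2 and 3 both genes stand below the line; in Low libraries both stand above it.

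The start of *Hey2* carries letters of the RBPJ site, through which Notch acts. GTGGGAA, the RBPJ core, occurred 2 times in its window (minus strand of chromosome 10, GRCm38.p6), at 30842973 to 30843001 as the reverse complement and at 30842770 to 30842798 in the sense of the gene, and is shown here in capitals:
Hey2 far match: gcgcggtggcaTTCCCACgcctctgccaa
Hey2 near match: tgggctgcagcGTGGGAAagaacctccag
The first matched bases lay 207 and 4 bases before the start site. Of all promoter windows, 6.38% hold GTGGGAA, and neither *Hes6* window nor that of *Nrarp* does. *Nrarp* held CAGCTG 33 bases into its transcript and CACNAG, the N box bound by HES proteins, at 2 positions, a motif found in 42.5% of all windows.

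Taken per transcript length, the make-up of the set differed between groups. In Low cells *Hes6* made 81.6% ± 1.6 of the summed TPM of the 6 genes, and in High cells 95.5% ± 0.8, against 22.5% ± 7.9 in QSCs (SD, n = 3 each). *Heyl* made 4.97% ± 1.93 in Low and 0.80% ± 0.06 in High cells, against 38.3% ± 7.4 in QSCs. *Hes1* made 9.80% ± 1.18 in Low and 2.76% ± 0.80 in High cells, against 24.1% ± 1.1 in QSCs.

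In all 6 cultured libraries *Hes6* led in TPM and *Hes1* came second. *Heyl* led in QSCs replicates 1 and 3, whereas *Hes6* led in replicate 2, where it had 89.7 TPM beside 86.0 TPM of *Heyl*. The order of *Heyl*, *Hes1* and *Hes6* in QSCs was thus not the same in every library. In High cells *Heyl* and *Hey1* had overlapping TPM, 14.3 to 20.8 and 16.9 to 19.5.

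The ratio of *Hes6* to *Hes1* TPM sets the gene that favours differentiation beside the repressor it interferes with. It was 8.89, 7.40 and 8.89 in Low and 45.02, 25.8 and 38.5 in High cells. In QSCs it was 0.72, 1.27 and 0.80. The groups did not overlap. A summed level without *Hes6* hides this. The other 5 genes came to 203 ± 35.0 TPM in Low and 96.8 ± 6.22 TPM in High cells, against 196 ± 25.4 TPM in QSCs. These sums are in TPM, on which the median gene was shifted up in both cultured groups against QSCs. By CPM, Low cells had 0.336 times the *Heyl* and 0.563 times the *Hey1* of QSCs. The same ratio was 0.281 for *Hey2*, 1.01 for *Hes1* and 2.16 for *Nrarp*.

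**Figure D4:**
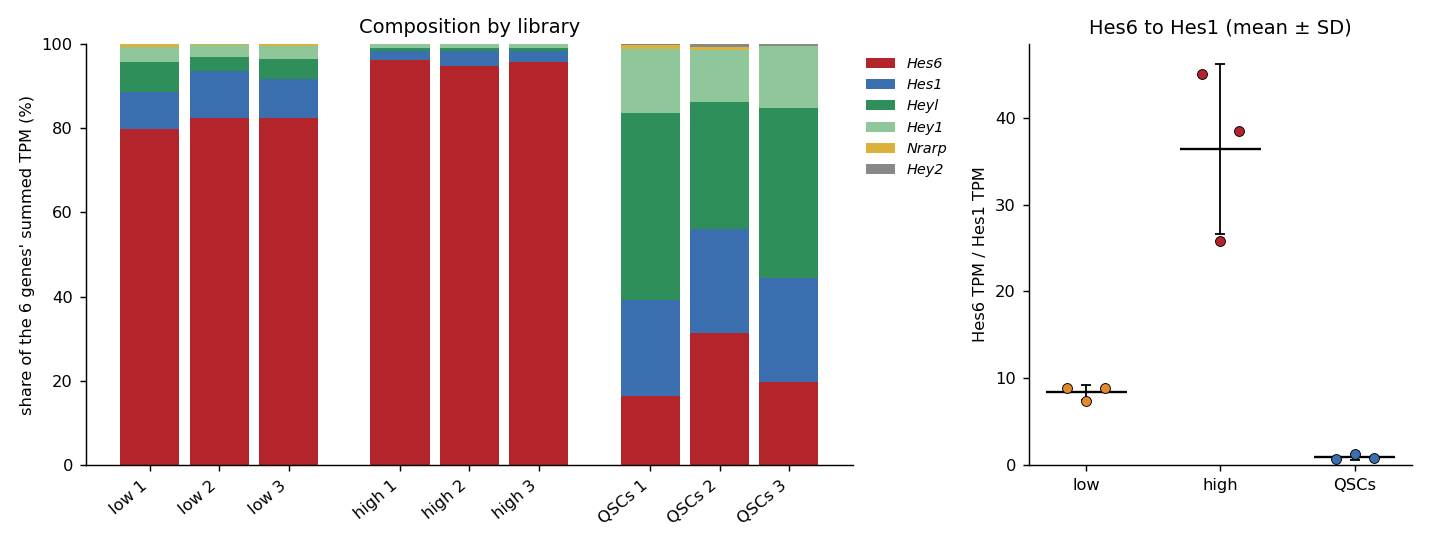
Left, share of each gene in the summed TPM of the 6 genes for every library (percent, stacked to 100); right, ratio of *Hes6* to *Hes1* TPM per library (points) with mean and SD, linear axis from 0. *Hes6* fills at least 79.7% of each cultured bar and at most 31.4% of each QSCs bar, and the ratio is highest in High libraries.

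The genes nearest to each of the 5 in pattern were sought among those of at least 5 CPM, by the root mean square difference of centred log2 CPM over the 9 libraries. For *Hes6* they were *Synpo2l* (0.22), *Dok7* (0.22) and *Dusp27* (0.25). *Dok7* encodes an activator of MuSK at the neuromuscular junction and *Synpo2l* an actin-binding protein of striated muscle. *Dok7* had 96.5 ± 11.9 CPM in Low and 256 ± 23.1 CPM in High cells, against 11.8 ± 1.84 CPM in QSCs (SD, n = 3 each). For *Hes1* they were *Capg* (0.06), an actin-capping protein, *Por* (0.09), the reductase that serves cytochrome P450 enzymes, and *Kirrel* (0.12), an adhesion protein.

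For *Heyl* the nearest gene was the receptor *Notch3* (0.29), followed by *Adgra2* (0.30) and *Col6a2* (0.30), a chain of collagen VI. *Notch3* had 322 ± 116 CPM in Low and 148 ± 19.1 CPM in High cells, against 896 ± 119 CPM in QSCs. For *Hey1* they were *Gstm1*, *Plekhh3* and *Cyb5a* (0.17 each). For *Nrarp* they were *Pdgfrb* (0.52), *Col6a3* (0.54) and *Mgp* (0.58), a looser likeness than for the other 4.

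*Pdgfrb*, a growth factor receptor used as a marker of pericytes, had 99.5, 34.8 and 52.8 CPM in Low and 18.7, 9.06 and 10.1 CPM in High cells, against 37.9, 25.8 and 21.9 CPM in QSCs. Its highest and lowest Low libraries were those of *Nrarp*, *Heyl* and *Hey1*. When Pearson's correlation was used instead, *Heyl* ranked first for *Hey1* and *Hey1* first for *Heyl* among 10458 genes. Of the 3 nearest genes, 2 were the same by both measures for *Hes1*, 1 for *Heyl* and 0 for *Hes6*, *Hey1* and *Nrarp*. The 9 points of such a pattern fall into 3 groups, so that any gene with the same order of groups comes out as like.

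The rest of the pathway was read from lists of 43 genes in all, of which 39 were tested. Of these, 4 were called higher and 3 lower in Low than in High cells, beside 1.23% and 3.88% of all genes, with a median log2 fold change of -0.02 beside -0.00084 over all genes. Of the 39, 6 and 3 were called with the replicate block, beside 6.25% and 8.68%. Against QSCs, 9 were called higher and 12 lower in Low cells, and 10 higher and 12 lower in High cells, with medians of -0.16 and -0.11 beside -0.07 and -0.02 over all genes. These counts stand beside 22.6% and 26.5% of all genes for Low and 24.6% and 26.4% for High cells, and the pathway's shares lay near them. These calls are read beside the 6 genes step by step.

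Among the 4 receptors, *Notch3* (log2 fold change 1.12 ± 0.22, adjusted p = 0.0095) and *Notch4* (2.57 ± 0.50, adjusted p = 0.0077), which is best known from vessels, were called higher in Low than in High cells. *Notch2* and *Notch3* were called lower in Low cells than in QSCs, and all 4 were called lower in High cells than in QSCs. *Notch1* had 81.3 ± 16.8 CPM in Low and 48.7 ± 5.72 CPM in High cells, against 108 ± 24.1 CPM in QSCs (SD, n = 3 each). *Notch1* was called higher in Low than in High cells with the replicate block (0.75 ± 0.09, adjusted p = 2.72e-05). The means of all 4 receptors ran in the order of those of *Heyl* and *Hey1*.

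The ligands did not move together. *Jag1* was called higher (log2 fold change 1.59 ± 0.17, adjusted p = 0.0013) and *Dll1* lower (-1.41 ± 0.20, adjusted p = 0.0022) in Low than in High cells. *Dll1* had 46.0 ± 6.03 CPM in Low and 122 ± 14.9 CPM in High cells, against 19.0 ± 5.62 CPM in QSCs, the order of *Hes6*. *Jag1* had 21.6 ± 2.37, 7.17 ± 0.63 and 66.6 ± 10.03 CPM in the same groups, the order of *Heyl*. *Jag2* was higher in both cultured groups than in QSCs (164 ± 16.1 CPM in Low, 200 ± 21.4 CPM in High, 14.7 ± 4.42 CPM in QSCs). *Dll3* and *Dll4* had a count of 0 in at least 1 library and were not tested: *Dll3* had at most 0.21 CPM in cultured libraries and 0.55 to 2.16 CPM in QSCs, and *Dll4*, an endothelial ligand, at most 0.20 and up to 10.5 CPM.

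Of the 8 genes of the nuclear complex, only *Rbpj* differed between the cultured groups by the test. It had 88.8 ± 13.1 CPM in Low and 169 ± 19.5 CPM in High cells, against 241 ± 31.1 CPM in QSCs (SD, n = 3 each), a log2 fold change of -0.93 ± 0.14 between the cultured groups (adjusted p = 0.0031). *Rbpj* was thus lower in the cultured cells that had more *Hes1*. Against QSCs, 1 gene was called higher in each cultured group (*Maml3*), and 5 were called lower in Low and 4 in High cells. The largest of these falls was that of *Kat2b*, an acetyltransferase that works with the complex, with 7.23 ± 0.65, 8.01 ± 1.48 and 76.5 ± 8.37 CPM in Low, High and QSCs.

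Of 13 tested genes that cut or glycosylate the receptors, 0 were called between the cultured groups by edgeR (0 at an unadjusted p under 0.05), and likewise 0 by DESeq2. With the replicate block 0 passed the fold threshold and 6 had an unadjusted p under 0.05, among them *Psen2*, a catalytic subunit of γ-secretase (-0.53, adjusted p = 0.000496). Against QSCs, 5 of the 13 were called higher and 1 lower in Low cells, and 5 higher and 0 lower in High cells. All genes had 22.6% and 26.5% for Low and 24.6% and 26.4% for High cells. The largest rise was that of *Lfng* (4.42 ± 0.38 in Low and 4.65 ± 0.39 in High cells). Among 11 tested inhibitors and turnover factors, *Dtx4*, a ubiquitin ligase of the Deltex family, was called higher in Low than in High cells (log2 fold change 1.32 ± 0.19, adjusted p = 0.002), as *Hes1* was. *Bend6*, a corepressor of Notch targets, was called higher with the replicate block (1.07 ± 0.16, adjusted p = 0.000237; 1.03 ± 0.60, adjusted p = 0.353 in the main test). *Sap30*, a subunit of a corepressor complex, was called lower (-1.21 ± 0.17, adjusted p = 0.0019), as *Hes6* was. Of 6 Groucho/TLE corepressor genes, 0 were called between the cultured groups by edgeR (2 at an unadjusted p under 0.05), and 0 by DESeq2. With the replicate block 0 passed the fold threshold and 4 had an unadjusted p under 0.05, among them *Tle3* (-0.49, adjusted p = 3.2e-05) and *Tle1* (0.39, adjusted p = 0.00253). Against QSCs, 2 of these 6 were called higher and 1 lower in each cultured group. Of the 11 inhibitors and turnover factors, 1 was called higher and 3 lower in Low cells than in QSCs, and 2 higher and 3 lower in High cells.

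Of 7 other Hes and Hes-related genes, 3 were tested. *Bhlhe40*, a stress-responsive repressor, had 19.5 ± 1.25 CPM in Low and 12.7 ± 0.24 CPM in High cells, against 374 ± 91.3 CPM in QSCs. *Bhlhe41* ran the other way with 83.0 ± 3.74, 102 ± 1.88 and 13.8 ± 3.59 CPM. *Hes2*, *Hes3* and *Helt* had counts of 0 in all 6 cultured libraries and *Hes5* in 5 of them, and *Hes7* had 0.12 to 0.51 CPM there, so that *Hes1* and *Hes6* held nearly all Hes counts in culture.

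**Figure D5:**
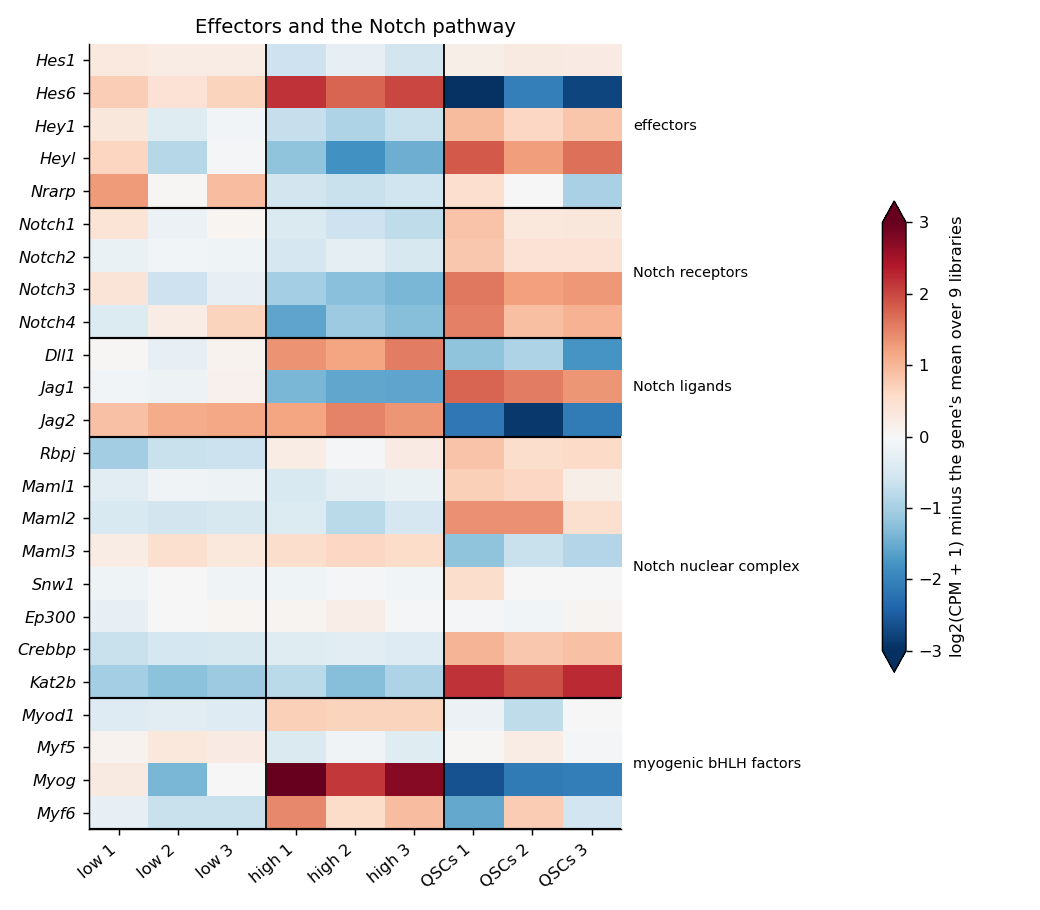
Log2(CPM + 1) of the 5 tested effectors, the tested Notch receptors, ligands and nuclear-complex genes and the myogenic factors, each minus its own mean over the 9 libraries (colour scale -3 to 3, values beyond it take the end colour). Columns are libraries by group and replicate, with QSCs at the right. *Heyl*, *Notch3* and *Jag1* are highest in QSCs and lowest in High libraries, and *Hes6*, *Dll1* and *Myog* show the opposite order.

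*Pax7*, the MuSC transcription factor, had counts in all 9 libraries, with 147 ± 4.91 CPM in Low and 80.7 ± 13.8 CPM in High cells, against 315 ± 45.8 CPM in QSCs (SD, n = 3 each). Of 7 tested MuSC markers it was the only one called between the cultured groups, and the list's median log2 fold change was 0.22. Against QSCs, 5 were called lower in each cultured group, while *Itga7*, the integrin used for enrichment, was called higher in High cells (0.71 ± 0.14, adjusted p = 0.000887).

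RNA of other cell types moved with some of the 6 genes. *Hey1*, *Hey2*, *Heyl* and *Notch4* are also used by vessel cells, and in bulk RNA fewer cells of a type cannot be told apart from less RNA per cell. The 18 endothelial markers summed to 69.4 to 87.3 CPM in Low and 28.6 to 31.3 CPM in High cells, against 659 to 1269 CPM in QSCs. Of 13 tested, 7 were called higher in Low than in High cells, and all 13 were called lower in either cultured group than in QSCs, as *Heyl* was. The part of these markers in the differences of the Hey genes was not tested. In Low replicates 1, 2 and 3 the endothelial sum was 69.4, 87.3 and 71.4 CPM. The sum of the pericyte and smooth muscle markers described next was 983, 475 and 822 CPM in these libraries. *Heyl*, *Hey1* and *Nrarp* were highest in replicate 1 and lowest in replicate 2 of Low cells. The same libraries were highest and lowest for *Hes6* and for the sums of the MuSC, myofibre and fibroblast markers. They were not for the endothelial, myeloid, Schwann cell and tenocyte sums. The order is thus not particular to the pericyte list. These orders were not tested.

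The 11 pericyte and smooth muscle markers summed to 475 to 983 CPM in Low and 1314 to 2463 CPM in High cells, against 1081 to 1120 CPM in QSCs. *Acta2* made most of it in the cultured groups, with 515 ± 231 CPM in Low and 1743 ± 562 CPM in High cells, against 408 ± 41.9 CPM in QSCs. Of 8 tested, 1 was called higher and 4 lower in Low cells than in QSCs, and 2 higher and 4 lower in High cells, with *Cspg4* higher in both (2.53 ± 0.23 and 2.38 ± 0.23). *Rgs5*, a defining pericyte gene, had 7.20 ± 1.18 CPM in Low and 5.44 ± 0.68 CPM in High cells, against 206 ± 66.7 CPM in QSCs. *Higd1b*, another, had a count of 0 in 5 of the 6 cultured libraries. Fibroblast markers (11 genes) summed to 571 to 744 CPM in Low and 388 to 456 CPM in High cells, against 1825 to 1970 CPM in QSCs. Myeloid markers (12 genes) summed to 30.7 to 54.5 CPM, 7.46 to 14.9 CPM and 111 to 164 CPM in the same groups. Schwann cell markers (6 genes) summed to 30.8 to 63.5 CPM in Low and 35.6 to 49.6 CPM in High cells, against 121 to 203 CPM in QSCs. *Sox10*, a defining Schwann cell gene, was called higher in Low than in High cells, with 4.86 ± 3.55 CPM in Low, 0.089 ± 0.061 CPM in High and 3.12 ± 2.45 CPM in QSCs. Tenocyte markers (4 genes) summed to 80.03 to 82.7 CPM in Low and 129.9 to 137 CPM in High cells, against 261 to 321 CPM in QSCs. The fibroblast, myeloid, Schwann cell and tenocyte sums were highest in QSCs, as *Heyl* and *Hey1* were. The pericyte sum was highest in High cells, where *Acta2* made most of it, while *Rgs5* was highest in QSCs. Of the 8 tested pericyte and smooth muscle markers, 1 was called higher in Low than in High cells (*Pdgfrb*, 2.30, adjusted p = 0.0053). Another 2 were called lower, *Acta2* (-1.76, adjusted p = 0.0077) and *Abcc9* (-3.26, adjusted p = 0.0022). *Abcc9*, also a pericyte gene, went another way than *Rgs5*. It was lower in Low cells than in QSCs (-2.75, adjusted p = 0.0004), but not in High cells (0.51, adjusted p = 0.307). The part of these cell types was not tested.

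Immediate early and mitochondrial RNA also set QSCs apart. The 18 immediate early genes, which dissociation of tissue switches on, summed to 930 to 1159 CPM in Low and 851 to 944 CPM in High cells, against 24169 to 32359 CPM in QSCs. Mitochondrially encoded genes took 3.92% to 4.61% and 4.44% to 4.95% of the counts in the cultured groups, against 11.4% to 19.0% in QSCs. The source of these 2 differences was not tested, nor was their part in the levels of *Hes1*, *Hey1* and *Heyl* in QSCs. The 10 mature myofibre markers summed to 498 to 2059 CPM in Low and 6516 to 13655 CPM in High cells, against 452 to 1247 CPM in QSCs, and replicate 2 was the lowest of either cultured group, as it was for *Hes6*.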

How the data were processed

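Poly(A) RNA of 9 libraries was sequenced as paired-end reads, and per the labels and methods the authors mapped them to GRCm39 and counted them with the default settings of CLC Genomics Workbench 20.0.3; the annotation version and strand setting are not given in the sources used here, so antisense reads may be included. The authors deposited raw counts per gene, not normalized, and TPM, which the same software scales by transcript length to a fixed total within each library. Another 18 per-sample columns and 24 columns with the authors' own comparisons (fold changes and p-values) were not used. Promoter sequences came from RefSeq on GRCm38.p6, so their coordinates are not those of the genes. Windows matched 3 of the 6 genes.

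The main test was edgeR 4.0.16 (R 4.3.3; TMM, robust quasi-likelihood fit of all 9 libraries) on the genes with counts in every library, the filter of the study's methods. The scripts were tested on simulated data. Depth was 7514633 to 26782872 counts per library, and the low counts of *Hey2* and *Nrarp* limit their precision. No library duplicated another.

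Low stands for MyoD-tdTomato low and High for MyoD-tdTomato high. Deviations from group means of Low and High libraries with the same label number correlated at 0.44, 0.43 and 0.18 across genes, so these numbers were taken as pairs. Those of QSCs and cultured libraries correlated at -0.046 to 0.013 and were not. The labels state no pairing, and its origin is unknown.

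All 6 genes are described. Other genes named are myogenic factors, up to 3 called genes of highest mean CPM per pathway list, direction and comparison, any gene of a list with under 5 measured members, and the 3 genes nearest in pattern to each of the 5 genes tested, with predicted genes left out. *Notch1*, *Dll3*, *Dll4*, *Pax7*, *Pdgfrb*, *Itga7*, *Rgs5*, *Higd1b*, *Abcc9*, *Acta2*, *Cspg4*, *Sox10*, *Psen2*, *Lfng*, *Bend6*, *Tle1*, *Tle3*, and *Hes2*, *Hes3*, *Hes5*, *Hes7* and *Helt* were named after their values were seen, wherever that rule did not name them. The 6 genes, the lists and the tests were chosen with earlier results of these data known. Alternatives were DESeq2 1.42.0, limma 3.58.1 on log2(TPM + 1) and log2(TPM + 0.1), RLE and upper-quartile factors, other filters and thresholds, only the groups compared, the replicate block and leaving out each library.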

Additional observations from a re-analysis of the deposited data

How the results depend on the processing

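Between Low and High cells 645 genes and 2 of the 6 genes were called. These counts were 1206 and 5 with DESeq2, 1205 and 5 at an adjusted p under 0.05 with the same fold, 1437 and 5 with no fold threshold, 415 and 1 with limma on log2(TPM + 0.1), and 2016 and 5 with the replicate block in the 2 cultured groups; with only those groups and no block 1026 genes were called. With the block in all 9 libraries, 654 genes and 3 of the 6 were called. Leaving out 1 library gave 111 to 881 genes and 0 to 2 of the 6. The split was 155 higher and 490 lower, against 454 and 752 with DESeq2 and 213 and 402 with upper-quartile factors. Against QSCs, leaving out 1 library gave 5259 to 6645 genes and 2 to 3 of the 6 in Low cells, and 5517 to 6903 genes and 4 to 5 of the 6 in High cells, and the replicate block changed no other call of the 6 genes. On log2(TPM + 1), *Nrarp* was called higher in Low cells than in QSCs (1.36, adjusted p = 0.00544, limma). With no filter, *Hes1* in High cells against QSCs (-0.54) and *Hey1* in Low cells against QSCs (-0.67) were not called, nor was the second with only those 2 groups in the fit (-0.70). A pair of values near 0 turned sign: *Hes1* in Low cells against QSCs without QSCs replicate 1 (-0.0062, in a range up to 0.036 over all libraries left out), and *Nrarp* in High cells against QSCs on log2(TPM + 0.1) (0.012). Of 305 single-gene values under alternatives, 260 kept direction and call, 20 gained and 23 lost the call. The mean ratio of *Hes6* to *Hes1* was 8.15 to 8.89 in Low, 32.1 to 41.8 in High cells and 0.76 to 1.03 in QSCs without 1 library. The causes were not tested, except that leaving out libraries lowers the number of samples. *Hey2* entered the test with filterByExpr, with no filter, without High replicate 2 and in the fit of only Low cells and QSCs. Without High replicate 2 it was called lower in High cells than in QSCs (-2.72, adjusted p = 0.00788). That comparison gave no call with filterByExpr (-3.25, adjusted p = 0.016) or with no filter (-3.16, adjusted p = 0.0379). In the fit of only Low cells and QSCs, *Hey2* was not called (-1.67, adjusted p = 0.0506). Its QSCs level is near background.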
